A study of Mus musculus with 4 samples.

Results

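The cells described here are macrophages of mouse lung tumours with high counts of the C1q genes, in single-cell RNA libraries made before immune cells were depleted. A cell was a member if it held at least 10 UMIs (unique molecular identifiers, each standing for 1 captured RNA molecule) of C1qa, C1qb and C1qc together, at most 1 UMI of the alveolar macrophage genes Ear1, Atp6v0d2 and Krt79 together, and none of Cd3e, Cd79a or Epcam. Cells entered only if 200 or more genes were seen in them and mitochondrial UMIs did not pass 20%. The rule found 771 members among the 13531 cells kept from the libraries made before depletion, and the whole series held 28085 kept cells. Members were thus chosen by measured counts of these 9 genes, so their C1q values are descriptions and not findings.

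The alleles that all mice shared included p53frt, Rosa-FSF-CreERT2 and Hnf4aflox. Tumours were started by intubation with adenoviral mSPC-FlpO, in which a surfactant protein C promoter drives the recombinase, so CreERT2 is switched on only in cells where Flp has acted. Tamoxifen or vehicle was injected 10 weeks later, tumours were collected after another 2 weeks, and part of each tumour suspension was frozen before CD45-positive and CD31-positive cells were removed with magnetic beads. The 4 groups, from vehicle and tamoxifen on either side of the depletion step, hold 1 library each, and the number of animals and tumours behind each is not stated in the labels. No value has a replicate check for that reason, no p-value is given, and every interval is a 95% interval that covers counting error only.

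C1q is the recognition molecule of the classical complement pathway, built from the products of C1qa, C1qb and C1qc, and in many tissues it is made mainly by macrophages. Lung tumours hold alveolar macrophages, which live in the airspaces and handle surfactant, and other macrophages that lie in the tissue and can be replenished from blood monocytes. Macrophages with C1q, apolipoprotein E and class II antigen presentation genes, and macrophages with Spp1, Arg1 or Fn1, are commonly described as separate states in tumours.

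The C1q genes are neighbours on chromosome 4 of GRCm38, all on the minus strand. C1qb (ENSMUSG00000036905) lies from 136880129 to 136886187, C1qc (ENSMUSG00000036896) from 136889804 to 136893065 and C1qa (ENSMUSG00000036887) from 136895917 to 136898803. Promoters of C1qb and C1qc are shown because these genes are part of the rule that defines the population. Over members, the Spearman coefficient of C1qb with C1qc was 0.66 in the vehicle library (453 cells) and 0.62 in the library labelled tamoxifen (304 cells). That of C1qa with C1qc was 0.77 and 0.69, and that of C1qa with C1qb 0.75 and 0.68. The cells were chosen on the sum of these genes and are not replicates, so the coefficients are descriptions. They carry no test and say nothing on shared regulation. Each promoter is the stretch from 250 bases before to 50 bases after the RefSeq start, at chr4:136886151-136886450 and chr4:136892865-136893164 of GRCm38.p6, written 5′ to 3′ on the minus strand. Capitals mark a match to a binding motif of PU.1, a macrophage transcription factor (GAGGAAGT, or ACTTCCTC on the other strand).
C1qb: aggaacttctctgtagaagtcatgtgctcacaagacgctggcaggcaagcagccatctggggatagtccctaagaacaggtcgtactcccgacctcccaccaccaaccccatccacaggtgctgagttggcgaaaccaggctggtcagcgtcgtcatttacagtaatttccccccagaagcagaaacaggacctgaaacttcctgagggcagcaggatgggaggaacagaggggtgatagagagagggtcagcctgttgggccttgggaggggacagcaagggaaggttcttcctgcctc
C1qc: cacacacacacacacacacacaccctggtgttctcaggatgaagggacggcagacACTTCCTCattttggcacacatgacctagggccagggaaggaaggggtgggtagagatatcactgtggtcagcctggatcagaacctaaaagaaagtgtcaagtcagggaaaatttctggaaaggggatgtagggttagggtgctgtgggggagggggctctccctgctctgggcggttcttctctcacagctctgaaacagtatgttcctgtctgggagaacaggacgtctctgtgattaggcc
The C1qc stretch held 1 such match, starting at base 56, and the C1qb stretch held none. Over 32851 RefSeq promoters of the same length, 3.20% held the motif on either strand. A half-site of MAF factors (TGCTGA, or TCAGCA on the other strand) started at base 120 of the C1qb stretch, was not in the C1qc stretch, and was found in 19.5% of all promoters. These are matches of letters and not measured binding sites.

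The vehicle library made before depletion held 456 members of 7304 kept cells, a share of 6.24% (Clopper-Pearson interval 5.70 to 6.82). The library labelled tamoxifen held 315 of 6227, or 5.06% (4.53 to 5.63). Among cells with a UMI of Ptprc, the gene of CD45, members made up 7.63% (6.96 to 8.33) and 6.31% (5.64 to 7.02). After depletion the same rule found 0 of 7043 cells with vehicle, which allows a share of up to 0.0426%, and 2 of 7511 cells with tamoxifen. Before depletion the intervals of the shares of kept cells did not overlap, by a narrow margin, those of the shares of Ptprc cells did, and the spread between animals is unknown.

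Members were deeply sampled, with a median of 15420 UMIs per cell in the vehicle library and 15489 in the library labelled tamoxifen, and summed totals of 7560087 and 5106145 UMIs. Over the 4 libraries, 92644997 to 144994771 UMIs and 6558 to 7867 barcodes were deposited. The libraries made before depletion shared 16 barcodes, and no member's barcode was a member in both. Hnf4a, the floxed gene, was counted in epithelial cells at 55.3 CPM (the gene's UMIs scaled to the total of the gated cells) with vehicle and 84.8 CPM in the library labelled tamoxifen. The floxed gene thus showed no fall in the library labelled tamoxifen. Whether the UMIs counted here would fall with its deletion was not tested, so that library is named by its label throughout. In members Hnf4a was at 0.132 and 0.196 CPM, and Cre was at 0 in both libraries. A doublet score of 0.25 or more was reached by 7 and 4 members, which were kept.

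The rule sets the C1q counts of members at 10 or more, and free RNA gives C1q UMIs in other cells. The median member held 154.5 C1q UMIs with vehicle and 180 in the library labelled tamoxifen, with ranges of 10 to 618 and 11 to 777. T cells, which should lack the genes, had a C1q UMI in 11.4% and 16.4% of cells at median depths of 5990 and 6269 UMIs, and after thinning to 2000 UMIs in 3.94% and 5.78% of the 964 and 554 cells deep enough. Summed over cells, the C1q genes reached 17.3 and 29.8 CPM in T cells against 10173 and 11691 CPM in members. A few cells that should lack C1q reached the members' range. The highest T cell held 5 and 17 C1q UMIs and the highest epithelial cell 16 and 15, with 2 epithelial cells of each library at 10 or more. Few cells lay near the threshold. Just outside it, 19 and 9 cells held 5 to 9 C1q UMIs and gave 3188 and 5511 CPM of Apoe. Just inside it, 11 and 5 cells held 10 to 14 C1q UMIs and gave 1033 and 11430 CPM of Apoe, against 29139 and 34177 CPM in members with 15 or more.

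**Figure D1:**
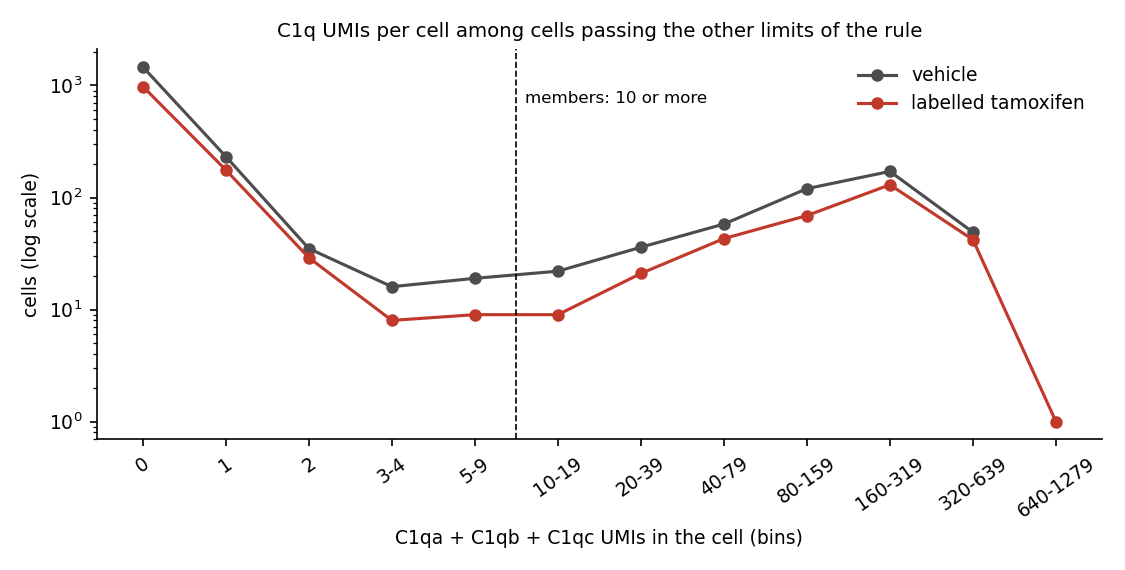
Cells (log axis) in bins of their summed C1qa, C1qb and C1qc UMIs, among cells before depletion that pass the other limits of the rule, with 1 line per library and the member threshold of 10 dashed. Both libraries show many cells at 0, few cells from 3 to 39 UMIs, and a second peak from 160 to 319 UMIs, which held 171 cells with vehicle and 130 in the library labelled tamoxifen.

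Members carried the general macrophage genes in both libraries. Pairs of values give the vehicle library first and the library labelled tamoxifen second. Csf1r, the receptor for macrophage growth factor, was counted at 638 and 670 CPM and found in 454 of 456 and 309 of 315 members. Adgre1, which encodes F4/80, stood at 342 and 303 CPM. Gated alveolar macrophages of the vehicle library had 93 CPM of Csf1r and 75.7 CPM of Adgre1. Among the marker genes used to describe the population, Ms4a7 was at 657 and 800 CPM, Mgl2, a galactose lectin, at 322 and 377 CPM, and Apoe, the lipid carrier apolipoprotein E, at 28588 (Poisson interval 28468 to 28709) and 33836 (33676 to 33995) CPM. Ms4a7 was seen in 336 and 252 members and Mgl2 in 291 and 212, so neither marked every cell. Gated dendritic cells had Mgl2 at 207 and 299 CPM, less than 2-fold below members.

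Markers of other cell types that had a gate of their own were low but not all at 0. The 12 alveolar macrophage markers summed to 144 and 139 CPM, against 13653 and 11574 CPM in gated alveolar macrophages, with Cidec at 0 in both and Marco at 0 in the library labelled tamoxifen. The 8 classical monocyte markers summed to 583 and 469 CPM against 4720 and 7462 CPM in gated monocytes, and Ccr2, the receptor for CCL2, made up 314 and 264 CPM of that. The 8 non-classical monocyte markers, of which 3 reached 10 CPM, summed to 609 and 483 CPM and had no gate of their own. Gated classical monocytes held 1104 and 1223 CPM of them, and alveolar macrophages 475 and 524 CPM. Dendritic cell markers summed to 21.8 and 49.2 CPM against 2106 and 1932 CPM in gated dendritic cells. Epithelial markers summed to 446 and 502 CPM against 78906 and 84360 CPM in epithelial cells, and neutrophil markers to 420 and 731 CPM against 48455 and 54415 CPM in neutrophils. B cell markers summed to 149 and 176 CPM, and T cell, NK cell, endothelial and fibroblast markers each to at most 148 CPM. The part of these RNAs in the results was not tested.

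Against other myeloid cells, Apoe stood out beside the C1q genes that the rule used. The comparison populations were gated on marker genes and held 579 and 669 alveolar macrophages, 95 and 60 classical monocytes and 83 and 50 dendritic cells, so the ratios are descriptions. In the vehicle library Apoe was at 1228 CPM in alveolar macrophages, 1698 CPM in classical monocytes and 126 CPM in dendritic cells. Members of the vehicle library and of the library labelled tamoxifen had 16.8 and 19.9 times that level of vehicle monocytes. It was the highest of the 3 populations over both libraries. Against alveolar macrophages, 8.85% of 8358 genes reached 2-fold higher levels in members of both libraries and 7.27% the reverse. Against monocytes the shares were 5.96% and 5.05% of 8116 genes, and against dendritic cells 9.95% and 9.07% of 8412 genes.

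The other genes with the largest ratios to all 3 populations were of mixed function. Tmem119, a membrane protein best known from microglia, was at 122 and 115 CPM, or 21.6 and 20.4 times the highest other myeloid level. Hpgds, the haematopoietic prostaglandin D synthase, was at 156 and 165 CPM, 11.1 and 11.8 times higher. Ccl12, a chemokine, was at 381 and 402 CPM, 7.7 and 8.1 times higher. Stab1, a scavenger receptor, was at 170 and 147 CPM and Tnfsf13b, the B cell survival factor BAFF, at 65.9 and 75 CPM. Fcrls, an Fc receptor-like gene also known from microglia, was at 64.7 and 99.9 CPM. Gabbr2, Rapsn, Kcnj10, Ms4a14, Mmp13, Psd3, Slc13a3, Plau and Fam167b completed the list. For each gene, both libraries' ratios used the same divisor, the highest level of the 3 populations over both libraries. Any likeness of the ratios between the libraries thus reflects the members' levels only. It is no separate check of the contrast within each library. The smallest ratio was 6.2 for Fam167b in the library labelled tamoxifen.

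**Figure D2:**
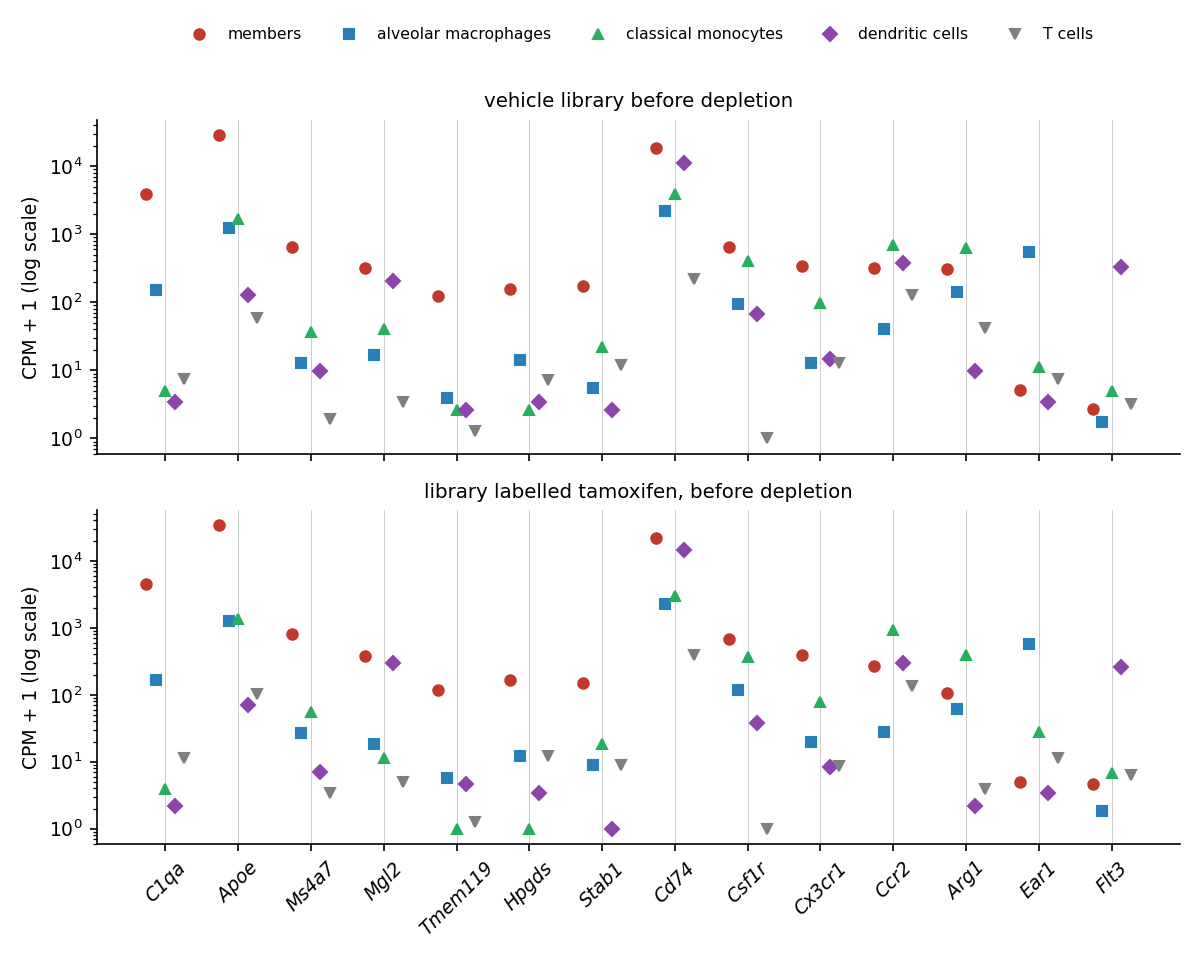
CPM + 1 (log axis) of 14 genes in members, gated alveolar macrophages, classical monocytes, dendritic cells and T cells, with the vehicle library above and the library labelled tamoxifen below; each point is 1 summed population. C1qa, which chose the members, and Apoe, Ms4a7 and Tmem119 are highest in members, Ear1 in alveolar macrophages and Flt3 in dendritic cells.

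Markers often used for resident tissue macrophages differed widely in level, some scarce and some abundant. Of 14 listed as resident interstitial, 11 reached 10 CPM in either library. Together the 14 summed to 2032 and 2031 CPM, against 1252 and 1344 CPM in gated alveolar macrophages. Lyve1, a hyaluronan receptor, was at 0.93 and 0.20 CPM, Timd4, a receptor for dying cells, at 2.12 and 1.96 CPM, and Folr2, a folate receptor, at 10.7 and 5.48 CPM. Cd163, the haemoglobin scavenger receptor, was seen in 12 and 5 members, and Vsig4, a complement receptor, in 1 and 0. Selenop, a selenium carrier, was widespread at 648 and 638 CPM, and the mannose receptor Mrc1 stood at 670 and 571 CPM. Maf was at 118 and 117 CPM against 5.11 CPM in alveolar macrophages of the vehicle library. Pparg, a regulator of alveolar macrophages, was at 6.88 and 3.33 CPM against 261 CPM there.

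Receptors for debris, complement and antibody were broadly present. C3ar1 and C5ar1, receptors for the complement fragments C3a and C5a, were at 330 and 316 CPM and at 261 and 278 CPM. Trem2, a lipid-sensing receptor, was at 403 and 428 CPM, the engulfment receptors Mertk and Axl were at 290 and 299 CPM and at 285 and 286 CPM, and Fcgr2b, the inhibitory Fc receptor, was at 621 and 650 CPM. Mertk was higher in alveolar macrophages of the vehicle library, at 505 CPM. C3 itself was at 96.2 and 75.6 CPM in 135 and 75 members. Class II genes were high, with Cd74, the invariant chain, at 18295 and 21841 CPM, against 2212 CPM in alveolar macrophages and 11237 CPM in dendritic cells with vehicle.

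Chemokine genes formed the other large part of the profile. Cxcl2, which attracts neutrophils, was at 3226 and 2831 CPM and Il1b, interleukin 1 beta, at 2983 and 2607 CPM. Ccl4 was at 1958 and 1843 CPM, Ccl3 at 958 and 867 CPM and Cxcl16 at 536 and 552 CPM. Among receptors, Cx3cr1 was at 338 and 395 CPM. Cells were dissociated, frozen, thawed and sorted, and the stress gene Fos stood at 2094 and 2165 CPM, so the part of handling in these inducible genes was not tested.

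Members differed from one another in Apoe and class II genes and in genes that ran against them, such as Fn1. To compare cells, each was thinned to 4000 UMIs, which left out 3 members with vehicle and 11 in the library labelled tamoxifen. The variance of thinned UMIs over their mean, which is 1 for random counting, was 116 and 103 for Apoe, 35.9 and 31.2 for Cd74, and 30.5 and 15.2 for Fn1, the fibronectin gene. Of the 20 genes with the largest values in the vehicle library, 8 were among the 20 largest in the other. Some large values came from single cells, as for Saa3, an acute-phase gene at 149 and 13.2, and Ccl5 at 53.8 and 120.

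Fn1, Arg1, the arginine-degrading enzyme arginase 1, and Spp1, osteopontin, were counted in the same cells. Across thinned members the Spearman coefficient of Arg1 with Fn1 was 0.59 with vehicle and 0.44 in the library labelled tamoxifen, and that of Spp1 with Fn1 was 0.48 and 0.31. Fn1 ran against C1qa at -0.50 and -0.35, against Ms4a7 at -0.50 and -0.37 and against Cd74 at -0.50 and -0.37. These coefficients describe cells of 1 library each, which share their depth after thinning, and carry no test.

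The 3 genes were unevenly spread over members. With vehicle, 208 of 453 thinned members had none of their UMIs, 135 had 1 to 9 and 110 had 10 or more. In the library labelled tamoxifen the counts were 170, 96 and 38 of 304. The share with 10 or more was 24.3% (20.4 to 28.5) and 12.5% (9.0 to 16.8), so it was lower in the library labelled tamoxifen by more than counting error. At the limits of the class, 5 and 4 cells held 9 UMIs and 7 and 3 held 10.

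Cells with 10 or more UMIs of the 3 genes had less of the genes that typified the rest. Mean thinned Apoe UMIs were 152 in vehicle members with none of the 3 genes and 67.6 in those with 10 or more, and 177 and 65.2 in the library labelled tamoxifen. Cd74 was at 95.6 against 28.9 and at 103 against 36.8 mean UMIs, and Ms4a7 at 3.87 against 1.05 and 4.5 against 1.0. C1qa also stood lower, at 19.7 against 8.64 and 20.4 against 9.5, though both classes passed the C1q threshold. Other genes stood higher in the same cells. Vegfa, the vascular growth factor, was at 0.24 against 1.35 and 0.16 against 1.71 mean UMIs, Nrg1, neuregulin 1, at 0.14 against 2.02 and 0.25 against 2.13, and Ccr2 at 0.71 against 1.78 and 0.68 against 2.47. F10, coagulation factor X, was at 0.01 against 1.46 and 0.05 against 0.66.

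A small set of members had almost no class II RNA. Fewer than 10 thinned UMIs of H2-Aa, H2-Ab1, H2-Eb1 and Cd74 together were found in 48 of 453 members with vehicle (10.6%, 7.92 to 13.8) and 22 of 304 in the library labelled tamoxifen (7.24%, 4.59 to 10.8). This limit was chosen after the values were seen. Of the 48, 33 also had 10 or more UMIs of Arg1, Fn1 and Spp1 (68.8%, 53.7 to 81.3), against 77 of the other 405 (19.0%, 15.3 to 23.2). In the library labelled tamoxifen it was 8 of 22 (36.4%, 17.2 to 59.3) against 30 of 282 (10.6%, 7.29 to 14.8). The class II-poor cells had Apoe at 29319 and 26850 CPM, against 28532 and 34285 CPM in the others. Their Mgl2 was at 11 and 43.5 CPM, against 355 and 395 CPM in the others. Ciita, the class II master regulator, was at 1.38 and 0 CPM, against 94.9 and 85.5 CPM. They were not rich in the monocyte gene Ly6c2, at 2.76 and 3.63 CPM.

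**Figure D3:**
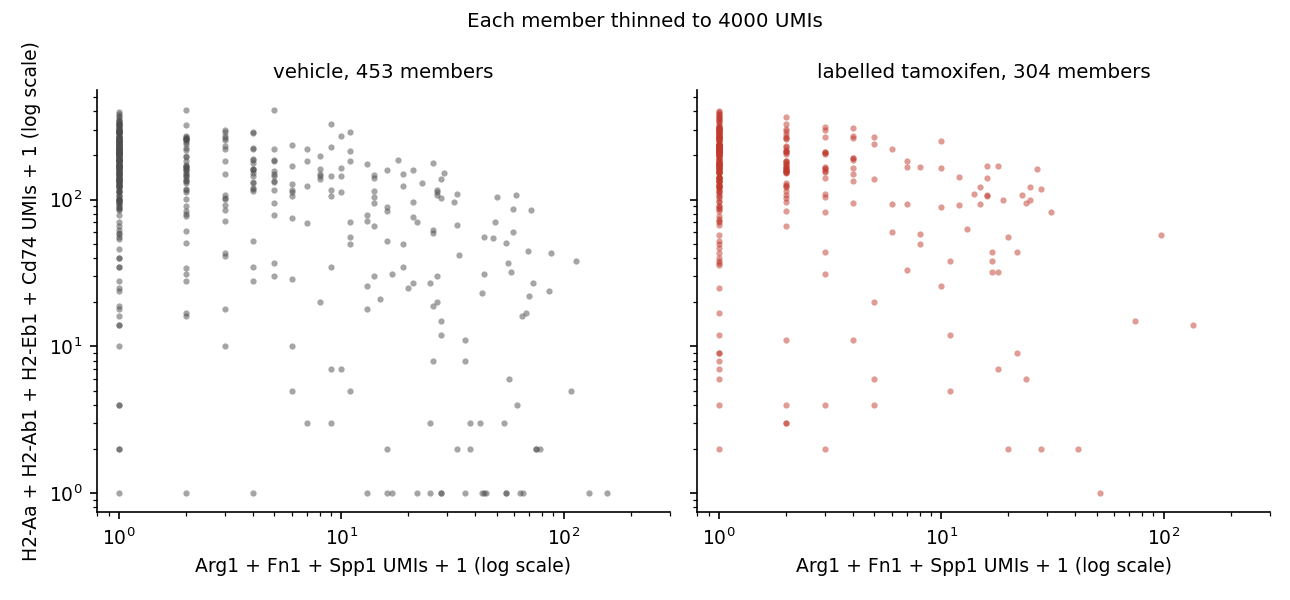
Each point is 1 member thinned to 4000 UMIs, with its summed Arg1, Fn1 and Spp1 UMIs + 1 (x, log) against its summed class II UMIs + 1 (y, log), for 453 vehicle members on the left and 304 members of the library labelled tamoxifen on the right. Cells with few class II UMIs lie mostly at high x values with vehicle, and fewer cells lie at 10 or more on x in the library labelled tamoxifen.

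Between the libraries, the members' profiles were close, with a few named genes apart. Genes were set apart by size, at least 10 CPM in either library and a ratio of at least 2-fold with 1 CPM added to both values. Of 8179 genes considered, 58 were higher (0.709%) and 70 lower (0.856%) in the library labelled tamoxifen, together 1.56%. The same rule set apart 1.43% of genes in alveolar macrophages, 2.22% in T cells and 2.09% in epithelial cells. The median log2 ratio over all genes considered was -0.07. In 34 of the 58 and 40 of the 70, more than 50% of the UMIs of the higher library came from 5 cells. In bulk sums such as these, fewer cells with a gene and less RNA per cell cannot be told apart, so the number of cells with a UMI is given beside each gene. In what follows the library labelled tamoxifen is set against vehicle and comes first.

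Arg1 was lower in the library labelled tamoxifen, at 104 (95.3 to 113) against 312 (300 to 325) CPM with vehicle, found in 57 and 139 members, a log2 ratio of -1.58 (-1.72 to -1.45). Fn1 was at 724 against 1527 CPM, in 140 and 257 members (-1.07, -1.13 to -1.02). Spp1, at 305 against 506 CPM, stayed short of the 2-fold limit at -0.73 (-0.82 to -0.65). In the library labelled tamoxifen, 53.7% of the Arg1 UMIs and 69.3% of the Spp1 UMIs came from 5 members each. Arg1, Fn1 and Spp1 were also lower in some other cells of that library. In alveolar macrophages the ratios were -1.22 for Arg1, -1.05 for Fn1 and -0.29 for Spp1. In T cells, which have little of these RNAs, Arg1 was at 2.93 against 40.7 CPM and Fn1 at 25.2 against 95.5 CPM. In epithelial cells Arg1 was at 21.7 against 16.4 CPM, Fn1 at 262 against 358 CPM and Spp1 at 115 against 339 CPM. Whether the T cell UMIs came from free RNA, and the part of free RNA in the result, was not tested.

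Chemokine genes differed in both directions. Ccl7, a monocyte attractant, was at 165 against 365 CPM, in 69 and 148 members, with a ratio of -1.14 (-1.26 to -1.03). Ccl2, another, was at 387 against 761 CPM, in 166 and 299 members, with a ratio of -0.97 (-1.05 to -0.90) that just missed 2-fold. Ccl12, of the same family, was at 402 against 381 CPM, and Ccl8 was higher, with values given below. In alveolar macrophages the ratios of Ccl7 and Ccl2 were -0.07 and -0.10, and the difference between the populations was not tested. Across thinned members Ccl2 and Ccl7 were counted together, with a coefficient of 0.51 in both libraries. Ccl24, an eosinophil chemokine, was almost absent from the library labelled tamoxifen, with 437 UMIs in 35 members with vehicle and 4 UMIs in 3 members there. It was also at 0 in alveolar macrophages of that library, against 39.7 CPM with vehicle.

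A difference spread over many cells was in Gdpd3, a lysophospholipase D. It was at 39.0 against 110 CPM, in 124 of 315 and 312 of 456 members, a ratio of -1.48 (-1.73 to -1.28). The 5 highest members gave 4.92% of its vehicle UMIs. After thinning, 14.8% of members had a UMI against 35.1% with vehicle, and 39.4% against 68.4% without thinning. It was lower in alveolar macrophages (-2.09), monocytes (-1.68) and T cells (-4.98) of the same library as well. Ube2j2, a ubiquitin-conjugating enzyme, was at 40.0 against 84.9 CPM in 136 and 319 members. The other genes lower by the rule and named were Tnip3, Egr3, Hsph1, Mcm5, Pbk, Alox15, Fcna and Saa3, and 92.8% of the vehicle UMIs of Saa3 lay in 5 members.

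Interferon-induced genes were higher in the library labelled tamoxifen. Ifi27l2a was at 348 (332 to 364) against 150 (142 to 159) CPM, in 253 of 315 and 258 of 456 members, a ratio of 1.21 (1.10 to 1.3). Isg15, a ubiquitin-like modifier, was at 68.2 against 22.2 CPM in 94 and 73 members (1.57, 1.35 to 1.89), and 46.3% of its UMIs in the higher library came from 5 members. Irf7, a transcription factor of the interferon response, was at 20.6 against 6.61 CPM in 43 and 28 members (1.5, 1.14 to 2.15). Of the 17 measured genes of the type I interferon list, 13 reached 10 CPM. All 13 had ratios above 0 and 7 were at least 2-fold higher, among them Oasl2, Rtp4, Ifit2 and Ifit3. The list's median was 1.21, beside -0.07 for all genes considered. It was 0.25 in alveolar macrophages and 0.87 in T cells of the same libraries, so other cells shared the direction. Leaving out the 5 highest members for each gene lowered the list's median to 0.70.

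Genes induced by interferon gamma were nearer to the background. Of 17 that reached 10 CPM, 15 had ratios above 0 and 1, the GTPase Iigp1, was at least 2-fold higher, in 25 and 16 members, with a list median of 0.33. Cd274, the checkpoint ligand PD-L1, was at 116 against 72.3 CPM (0.67, 0.51 to 0.85). Cxcl9 was seen in 29 and 26 members and Cxcl10 in 74 and 99, with ratios of 0.58 and -0.18. Siglec1, a sialic acid receptor also induced by interferon, was at 13.1 against 5.82 CPM in 59 and 39 members.

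The remaining genes named as higher were carried by fewer cells. Cxcl13, a B cell attractant, was at 99.7 against 4.89 CPM, with 97.8% of its UMIs in 5 members of the library labelled tamoxifen. Ccl8, a monocyte chemokine, was at 130 against 31.5 CPM in 31 and 43 members. Lpar1, a receptor for lysophosphatidic acid, was more widely spread, at 20.4 against 5.69 CPM in 49 and 26 members, as was Adamdec1, a metalloprotease-like gene, at 57.0 against 23.4 CPM in 58 and 43. Ly6i, Ifi211, Apol7c, Negr1, Ifi209 and Nectin3 were the others. Of the 58 higher genes, 19 were left to rank after genes with no symbol of their own and genes far higher in other cells had been set aside, and of the 70 lower genes 13 were left.

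**Figure D4:**
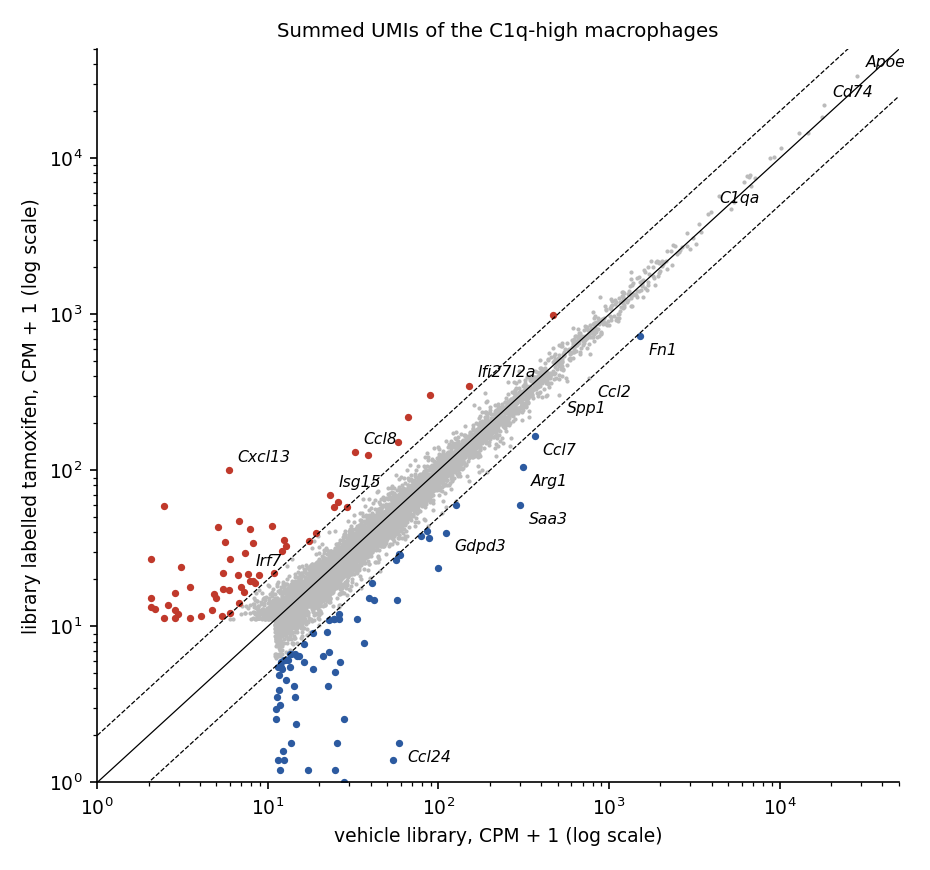
Each point is 1 of 8179 genes, with its CPM + 1 summed over members of the vehicle library (x, log) and of the library labelled tamoxifen (y, log); the solid line marks equal values, dashed lines 2-fold, red the 58 higher and blue the 70 lower genes. Apoe, C1qa and Cd74 lie near the solid line, Fn1, Arg1 and Ccl7 below the dashed line and Isg15 and Ifi27l2a above it.

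Gene lists that describe the population barely differed between the libraries. The 6 marker genes all had ratios above 0 with a median of 0.22, but C1qa, C1qb and C1qc among them were used by the rule. The 14 class II presentation genes had a median of 0.16 with 9 above 0. Complement genes, which include the same C1q genes, had a median of 0.01. Engulfment and Fc receptors had 0.01, lipid and lysosome genes -0.01, and receptors for chemokines and growth factors -0.01. Within these lists Itgam, the CD11b subunit of complement receptor CR3, was at 143 against 262 CPM (-0.87, -1.0 to -0.75). Cd36, a fatty acid scavenger receptor, was at 18.0 against 39.9 CPM in 44 and 78 members.

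Several lists were lower together by small amounts. Of 17 inflammatory genes, 15 had ratios below 0 and 1, Il6, was at least 2-fold lower, with a median of -0.23. Of 14 alternative activation genes, 10 were below 0, with a median of -0.24, and Arg1 and Ccl24 were the 2 that passed 2-fold. All 15 S phase genes were below 0 with a median of -0.47, and 12 of 16 G2/M genes, with a median of -0.35. The share of thinned members with at least 2 UMIs of G2/M genes was 9.71% (7.15 to 12.8) with vehicle and 11.2% (7.87 to 15.3) in the library labelled tamoxifen, and 24.6% and 26.0% without thinning. For S phase genes the share was 31.8% (27.5 to 36.3) with vehicle and 23.4% (18.7 to 28.5) in the library labelled tamoxifen. Without thinning it was 81.1% and 75.2%. Of 13 glycolysis and hypoxia genes, 12 were below 0, with a median of -0.29. Other cells shared part of this. In alveolar macrophages and T cells the medians were -0.35 and -0.29 for S phase and -0.25 and -0.50 for G2/M. They were -0.15 and -0.24 for glycolysis and hypoxia, -0.01 and -0.16 for inflammatory and 0.03 and 0.11 for alternative activation genes. Transcription factors had a median of -0.11, with none 2-fold apart. Over all genes considered, 37.6% had ratios above 0.

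**Figure D5:**
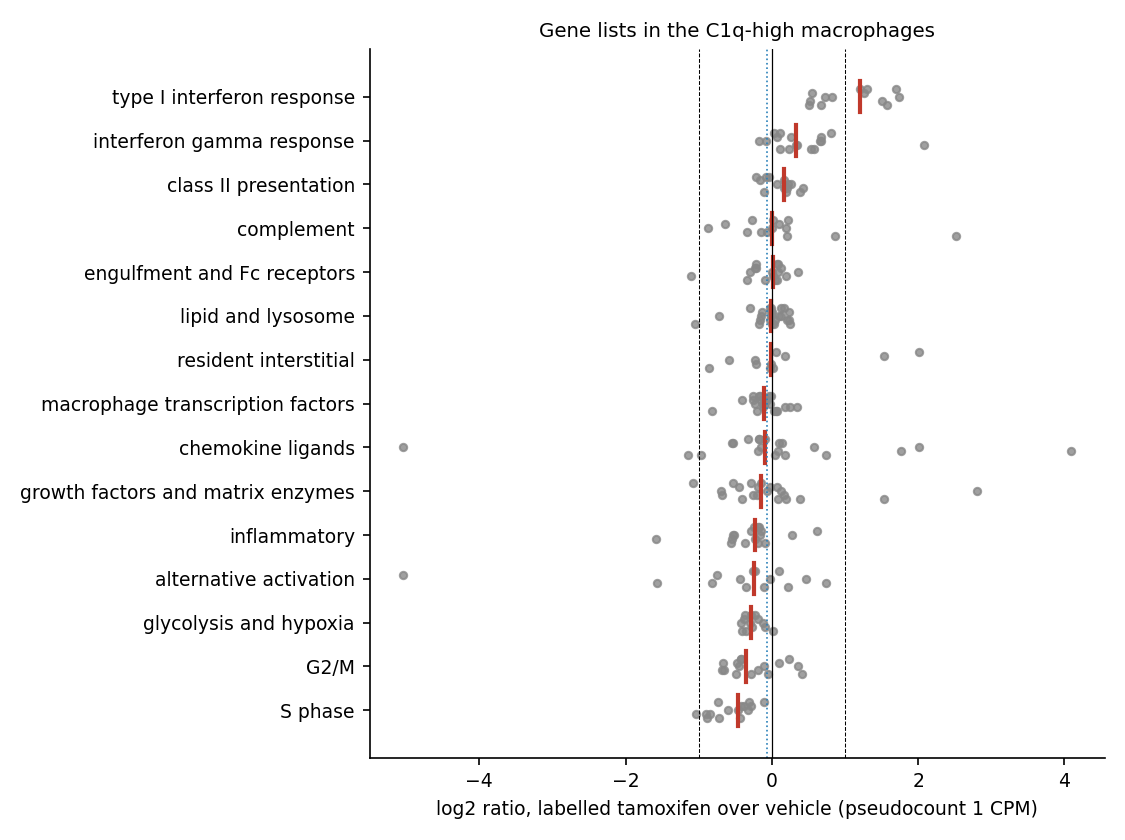
Log2 ratios of the library labelled tamoxifen over vehicle (x) for genes of 15 lists that reached 10 CPM in members; each point is 1 gene, red bars are list medians, the dotted line is the median of all genes considered (-0.07) and dashed lines mark 2-fold. The type I interferon list lies furthest to the right with a median of 1.21, and the S phase list lies furthest to the left at -0.47.

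The limit on Epcam removed a large group of C1q-rich cells. For these cells pairs of values again give the vehicle library first. Of 1095 vehicle cells and 746 cells of the library labelled tamoxifen with at least 10 C1q UMIs, 476 and 262 had low alveolar genes but at least 1 UMI of Cd3e, Cd79a or Epcam. Epcam, the epithelial adhesion gene, was found in 459 and 250 of these, with a median of 107 and 134 C1q UMIs. At least 2 Epcam UMIs were found in 403 cells with vehicle (5.52% of kept cells) and 189 in the library labelled tamoxifen (3.04%). Among these, Csf1r was seen in 398 of 403 and 188 of 189. Their median UMI counts, 23833 and 23978, were higher than those of members, and a doublet score of 0.25 or more was reached by 4.71% and 3.17%.

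These cells had Epcam at a level like that of epithelial cells, part of the Cdh1 level, and little keratin or surfactant RNA. Epcam was at 930 and 602 CPM, against 679 and 654 CPM in epithelial cells. Cdh1, the cadherin of epithelial cells, was at 202 and 120 CPM against 369 and 362 CPM. Krt8, a keratin, was at 90.5 and 64.2 CPM against 1349 and 1273 CPM. Sftpc, the surfactant protein of alveolar type II cells, had a median of 4 and 5 UMIs per cell, against 1270 and 1582 in epithelial cells. What gave them Epcam UMIs was not tested.

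They also differed from members in macrophage genes. In members of both libraries, 2.57% of 8136 genes reached 2-fold higher levels than in these cells and 3.32% 2-fold lower. Apoe was at 4055 and 6734 CPM, Ms4a7 at 66.5 and 65.7 CPM and Maf at 4.89 and 6.76 CPM, each below the levels of members given above. Ccl17, a chemokine for T cells, was at 1381 and 1151 CPM against 109 and 117 CPM in members. Dcstamp, a fusion receptor, was at 964 and 824 CPM against 182 and 168 CPM, and Mgl2 at 775 and 603 CPM. Irf4, a transcription factor of antigen-presenting cells, was at 188 and 140 CPM against 19.6 and 18.0 CPM. Of genes known from dendritic cells, Flt3 was at 3.74 and 6.76 CPM, against 1.72 and 3.72 CPM in members and 330 and 256 CPM in gated dendritic cells. Zbtb46 was at 22.9 and 18.4 CPM against 2.91 and 2.55 CPM in members, and Cd209a at 46.8 and 37.2 CPM against 8.33 and 5.68 CPM. Aff3 was at 76.9 and 47.7 CPM against 0.79 and 3.33 CPM. Each of these was also below its level in gated dendritic cells. These genes were chosen after their values were seen.

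Cells left out for exactly 1 UMI of Cd3e, Cd79a or Epcam, 59 with vehicle and 65 in the library labelled tamoxifen, came from the same suspensions. Here the library labelled tamoxifen again comes first. Arg1 was at 30.7 against 310 CPM, Fn1 at 502 against 1640 CPM and Spp1 at 135 against 1304 CPM, all lower in the library labelled tamoxifen. Ifi27l2a was higher at 326 against 185 CPM, and Irf7 at 16.2 against 3.39 CPM, while Isg15 was at 19.6 against 22.9 CPM. Of the 15 genes named as higher 9 had the same direction as in members, and of the 13 named as lower also 9. Alox15 and Cxcl13 had 0 UMIs in these cells of both libraries and could show none, and the share over all genes in these cells was not computed.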

How the data were processed

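Single-cell RNA was measured with version 3 of the 10x Genomics 3′ chemistry, per the labels' protocols. The deposited values are UMI counts per gene and barcode, with no normalization by the authors, per the file headers. Cell Ranger is given as version 7.0.1 in the file headers and 7.2.0 in the submitters' processing notes, with build mm10. The use of intronic reads and of strand is not given in the sources used here. The features numbered 32289, of which 4 are not mouse genes. Promoter sequences are from RefSeq tables of GRCm38.p6 and gene coordinates from GENCODE M21 (GRCm38).

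Members and comparison populations were gated on UMI counts, and the members, gene lists and gates were chosen with earlier results of these data known. Counts were summed per population and scaled to CPM. Ratios are log2 values of the library labelled tamoxifen over the vehicle library, with 1 CPM added to each. Their intervals are exact conditional binomial intervals without the pseudocount, those of CPM are exact Poisson and those of shares Clopper-Pearson. Intervals, and upper limits for a count of 0 (3 counts), cover counting error only. Doublets were scored with Scrublet in scanpy 1.11.5. Its automatic threshold called 188 cells and 1 cell, so it did not work for the library labelled tamoxifen, and a fixed score of 0.25 was used in an alternative. The script was tested on simulated counts.

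Named genes were those of the rule, the markers and lists, up to 15 genes each way by the interval bound nearest 0, the 20 with the largest ratio to alveolar macrophages, monocytes and dendritic cells, and the 20 with the largest variance over mean. Left out of the ranking by direction were mitochondrial, ribosomal, immunoglobulin, T cell receptor and sex-linked genes, genes with no symbol of their own, and genes over 5 times higher in other gated cells. The comparison gates took UMI sums of lineage genes, such as Ear1, Atp6v0d2 and Krt79 of at least 5 for alveolar macrophages. Clec7a and Mx1 of the lists were not analysed here. Alternatives changed the C1q threshold, thinning, other limits of the rule, the CPM minimum, the fold, the pseudocount and the scaling (edgeR 4.0.16 for TMM). A shared allele and some genes are not reported here.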

Additional observations from a re-analysis of the deposited data

Results flagged for a closer look

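Genes at least 2-fold apart between the libraries in members, and at least 2-fold the opposite way in alveolar macrophages, were looked for over all genes. The difference between the populations was not tested. Serping1, a complement inhibitor, had a log2 ratio of 2.51 in members, from 14 and 78 UMIs in 4 cells each, and -1.07 in alveolar macrophages. Gnb4 had 1.52 in members (23 and 54 UMIs) against -1.14. Lyz1, a lysozyme gene, had 1.27 (54 and 95 UMIs) against -1.05, and Retnlg, a neutrophil gene, 3.09 (31 and 217 UMIs) against -1.90. In the other direction, Plac8, a monocyte gene, had -1.02 against 2.42, Saa3 -2.33 against 2.61, Csmd1 -4.37 against 1.36 and Prtn3 -3.45 against 2.83. Each of these rests on few cells or few UMIs.

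After depletion, 2 cells of the library labelled tamoxifen met the same rule, with 12 and 44 C1q UMIs, while 0 cells of the vehicle library did.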

How the results depend on the processing

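No paired analysis was possible because each group holds 1 library, and for the same reason no replicate could be left out. The share of members, 6.24% with vehicle and 5.06% in the library labelled tamoxifen, became 9.86% and 8.29% after thinning to 4000 UMIs with a C1q threshold of 4. It was 7.05% and 6.10% with up to 1 UMI of Cd3e, Cd79a and Epcam together, and 12.8% and 9.27% with no limit on them; these limits were chosen after seeing the data. The other 12 shares, with C1q thresholds of 5 and 20 among them, stayed within the counting intervals. The counts of 58 higher and 70 lower genes became 13 and 16 with a CPM minimum of 50, 239 and 323 with none, 138 and 258 at 1.5-fold, and 28 and 26 with a pseudocount of 10. Restricting to members without UMIs of 9 genes of other cells gave 55 higher and 132 lower genes. Of these, 25 and 39 were among the 58 and 70. Leaving out the 5 members with the most UMIs of each gene, also chosen after seeing the data, gave 22 higher and 58 lower genes. Of these, 22 and 24 were among the 58 and 70. The type I interferon median of 1.21 became 0.82 with no CPM minimum, 0.70 with a pseudocount of 10 and 0.70 without those 5 members. Of 60 genes followed, ratios turned for Serping1 (-0.87 with a C1q threshold of 20), for Cldn18 (1.03), S100a8 (-1.76) and S100a9 (-1.64) without high doublet scores, and for Plac8 (0.081) with up to 1 UMI of the 3 genes. Without the 5 highest members they turned for Ccr7 (-0.59), Cldn18 (1.10), Hp (-0.38), Mmp9 (-0.14) and S100a8 (-0.27). The cause was not tested. TMM scaling gave 60 and 63 genes.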

Other observations

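Of the 400 Prg4 UMIs found in vehicle members, 98.8% lay in 5 cells, and the library labelled tamoxifen had 2 in all. The 4 cells with the most held 80 to 111 UMIs of Prg4, a lubricin gene, with 15 to 69 of Serpinb2, 17 to 58 of Alox15, an arachidonate lipoxygenase, and 51 to 1153 of Saa3. They had 3 or 4 C1qa UMIs each and 13 to 43 C1q UMIs in all, near the low end of members. These cells carried most of the Alox15 and Saa3 counts of the vehicle library, and they were chosen after their values were seen.

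In the library labelled tamoxifen, 1 member held 286 of the 295 Mfap4 UMIs, and 132 UMIs of Col1a1, Col1a2 and Col3a1, which are fibroblast genes. It had 11 C1q UMIs and 1 of Csf1r. S100a8, a neutrophil gene, had 93.9% of its UMIs in 2 members of that library. Ccr7, a migration receptor of dendritic cells, had 97.7% of its UMIs in 4 members.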
